A study of Mus musculus with 6 samples.

Results

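The nuclear genes for the subunits of the respiratory chain and ATP synthase were followed in whole mouse embryos at E10.5 that carried extra copies of *Mir483*. Members were the protein-coding genes in the count table whose mouse symbol starts with *Ndufa*, *Ndufb*, *Ndufc*, *Ndufs*, *Ndufv*, *Uqcr*, *Cox4*, *Cox5*, *Cox6*, *Cox7*, *Cox8* or *Atp5*, or is *Sdha*, *Sdhb*, *Sdhc* or *Sdhd*. Symbols that start with *Ndufaf*, which belong to assembly factors, and 13 pseudogenes or non-coding genes with matching symbols were left out. This gave 86 genes of the 55401 identifiers in the table, with 38 in complex I, 4 in complex II, 8 in complex III, 18 in complex IV and 18 in complex V. The rule itself uses symbols and gene types, and no measured value. A member is assigned to a complex by its symbol, so that *Ndufa4*, whose protein is now placed in complex IV, and its paralog *Ndufa4l2* are counted here with complex I.

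Complexes I and II pass electrons from NADH and succinate to ubiquinone, complex III passes them on to cytochrome c, and complex IV hands them to oxygen. Complexes I, III and IV pump protons across the inner mitochondrial membrane, and complex V, the ATP synthase, uses the return flow to make ATP. Most subunits are encoded in the nucleus and imported, while a small core set is encoded in the mitochondrial genome. Several nuclear subunits have tissue-specific alternatives, among them forms used in heart and skeletal muscle.

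The study compared 2 genotypes on a C57BL/6J background, with 3 RNA-seq libraries each. WT embryos had the unmodified *Igf2* locus, and 5C embryos (*Mir483* 5C) carried a tandem array of additional *Mir483* copies at the endogenous *Igf2* locus, in a line derived from targeted ES cells. Per the study's methods, every library was a pool of 2 male embryos and WT embryos were littermates of 5C embryos. Values are given as CPM (counts scaled to the TMM-adjusted library total) when libraries are compared, and as TPM (counts per transcript length, scaled to the same sum in every library) when genes are compared. In RNA from whole embryos, fewer cells that express a gene and less RNA per cell cannot be told apart.

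Libraries held 6357343 to 19151368 counts, so that 3 counts stood for 0.157 to 0.479 CPM. This floor covers counting error only. The edited gene, *Mir483*, measured 0.577, 0.429 and 0.319 CPM in the WT libraries against 5.15, 4.35 and 2.56 CPM in those of 5C, in the direction of its labels. Its value in WT replicate 3 lay under the floor of that library, 0.479 CPM, so the size of this difference is uncertain. The libraries did not all match the description of the pools as male. The Y-linked *Ddx3y* was at 0.944 CPM in WT replicate 2 and at 0 counts in 5C replicate 2, against 41.6 to 55.9 CPM in the other 4. *Xist*, which is expressed from the inactive X, was at 495 to 914 CPM in every library, the 4 with high *Ddx3y* included, which also goes against pools of male embryos alone. Yolk sac genes stood apart in WT replicate 1, where 12 marker genes summed to 6862 CPM, against 206 to 1380 CPM in the other 5 libraries. Markers of the embryonic heart, brain, blood and vessels all passed the count filter.

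Expression of the respiratory chain genes differed little between the genotypes. Of the 86 members, 82 passed the count filter and were tested. The others were *Cox7b2*, *Cox8b*, *Cox8c* and a further identifier of *Atp5o*, which had 0 counts and whose exons lie wholly within another gene on the same strand. In edgeR's quasi-likelihood test 0 members had an adjusted p under 0.05 with a fold change over 1.5, where 0 of 16784 genes did (0.0%), and the lowest adjusted p of a member was 0.781. The edited gene, *Mir483*, was itself not called in this test, at a log2 fold change of 3.05 and an adjusted p = 0.169. DESeq2 and limma-voom also called 0 members. At an unadjusted p under 0.05, 2 members were lower in 5C, *Ndufa2* and *Ndufs5*, against a background of 3.47% of all genes tested. In the other direction 0 members passed, against 2.55% of all genes. With DESeq2, 0 members reached an unadjusted p under 0.05, but the share of all genes was not computed for that fit.

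In all, 47 members had a lower and 35 a higher estimate in 5C, and their log2 fold changes had a median of -0.011. The corresponding value was -0.0039 over the 13980 protein-coding genes tested. Log2 fold changes lay within 0.1 of 0 for 60 of the 82 members, or 73.2%, against 50.5% of protein-coding genes. The 95% interval of the fold change stayed within 1.5-fold in either direction for 75 of the 82 members, or 91.5%, against 76.3% of protein-coding genes. Members were also more strongly expressed than most genes, with a median of 173.5 TPM against 22.6 TPM over protein-coding genes, and their log2 CPM had a median SD over the 6 libraries of 0.101 against 0.137. The 7 members whose intervals reached past 1.5-fold were *Ndufs5*, *Ndufa4l2*, *Cox4i2*, *Cox6a2*, *Cox6b2*, *Cox7a1* and *Atp5g2*, all at 20.3 TPM or less.

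**Figure D1:**
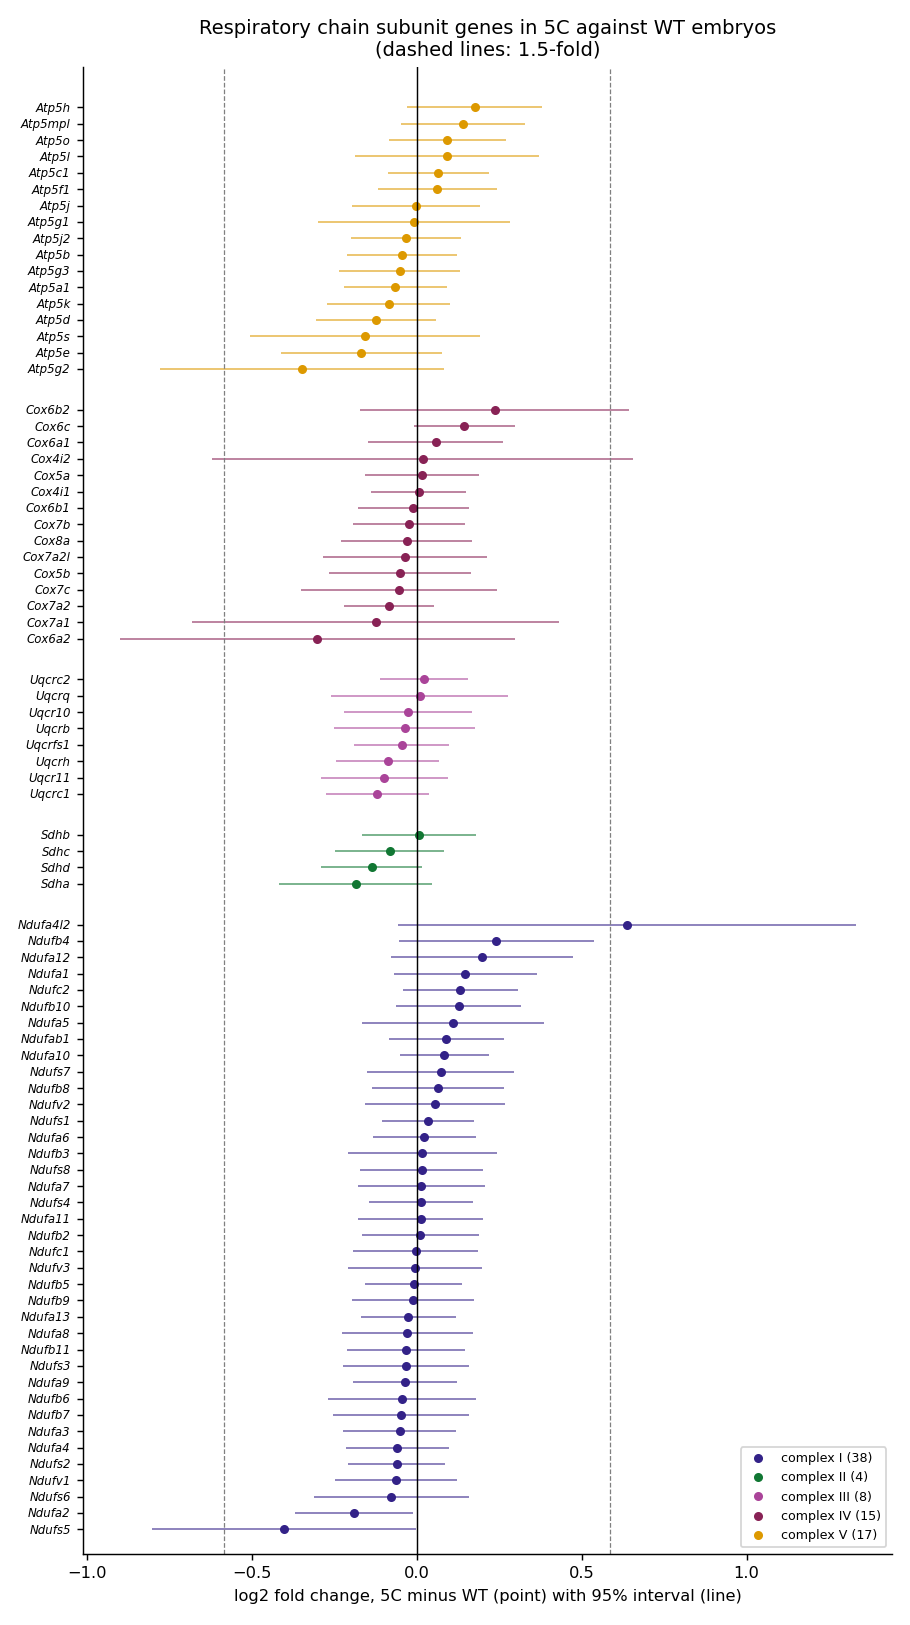
Log2 fold change (5C minus WT) of the 82 tested members by complex, as points with the 95% interval as a line, and dashed lines at 1.5-fold. Points lie between -0.40 for Ndufs5 and 0.64 for Ndufa4l2, and 60 of them lie within 0.1 of 0.

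Complex I, which takes electrons from NADH, had 20 members with a higher and 18 with a lower estimate, and its median log2 fold change was 0.01. Summed over its 38 members, the level was 2550.0, 2704 and 2462 CPM in the WT libraries against 2574, 2527 and 2666 CPM in those of 5C. The genotypes overlapped, and WT alone spanned the values of 5C.

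*Ndufa2*, a small accessory subunit of the NADH-oxidising arm, had the smallest p of all members. It measured 65.6, 65.9 and 65.3 CPM in the WT libraries against 62.6, 57.1 and 52.8 CPM in those of 5C, so the genotypes did not overlap. Its log2 fold change was -0.19 (SE 0.08), at an unadjusted p = 0.0392 and adjusted p = 0.781 in edgeR's quasi-likelihood test. The 3 WT values lay within an SD of 0.306 CPM and the 5C values within an SD of 4.94 CPM. With library size alone as the scaling the unadjusted p was 0.0677, and without 5C replicate 3 it was 0.14 at a log2 fold change of -0.13.

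*Ndufs5*, an accessory subunit at the membrane arm, was at 6.93, 6.87 and 6.38 CPM in the WT libraries against 5.88, 5.38 and 4.06 CPM in those of 5C. These values rested on 132, 80 and 40 counts in WT and 97, 63 and 57 counts in 5C. The log2 fold change was -0.40 (SE 0.18), at an unadjusted p = 0.0496 and adjusted p = 0.781 in edgeR's quasi-likelihood test. *Ndufa2* and *Ndufs5* both kept an unadjusted p under 0.05 only when 5C replicate 1 was dropped, among 6 fits with a single library missing. Every 5C library of *Ndufs5* lay under every WT library, with 5C replicate 3 the lowest, and without it the log2 fold change was -0.26 (unadjusted p = 0.171.) Of the coding sequence of *Ndufs5*, 76.6% is shared with other annotated loci, so its counts are uncertain.

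*Ndufa4l2*, a paralog of *Ndufa4* known as a gene induced by low oxygen, had the largest estimate of all members. Its levels were 1.26, 0.687 and 0.638 CPM in the WT libraries against 1.51, 1.37 and 1.495 CPM in those of 5C, from 4 to 25 counts per library. The genotypes did not overlap, but WT replicate 1 lay close to 5C. The log2 fold change was 0.64 (SE 0.31, unadjusted p = 0.0678.) Without WT replicate 1, the library high in yolk sac genes, the log2 fold change was 1.12 (unadjusted p = 0.0139, adjusted p = 0.947.)

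Complex II, succinate dehydrogenase, had the lowest median of the 5 complexes at -0.11, with 3 of its 4 members lower in 5C. Its sum was 647.1, 630.9 and 567.8 CPM in the WT libraries against 554.7, 569.8 and 585.7 CPM in those of 5C. WT replicate 3 lay inside the range of 5C, so the genotypes overlapped. *Sdhd*, a membrane anchor of the complex, measured 157, 153 and 140.1 CPM in the WT libraries against 138, 129.9 and 142 CPM in those of 5C. Its log2 fold change was -0.14 (SE 0.07, unadjusted p = 0.076.) *Sdhb*, the iron-sulfur subunit, had the only estimate above 0, at a log2 fold change of 0.01. *Sdha*, the flavoprotein that oxidises succinate and named here after its values were seen, had a log2 fold change of -0.19 with a standard error of 0.10. All 4 intervals of this complex stayed within 1.5-fold. Without replicate 2 of both genotypes the median of complex II was -0.06.

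Complex III, the cytochrome bc1 complex, had 6 members lower and 2 higher, with a median log2 fold change of -0.04. Its sums were 907.4, 953.2 and 873.5 CPM in the WT libraries against 899.2, 864.0 and 886.1 CPM in those of 5C, and the genotypes overlapped. *Uqcrc1*, a core protein, had the smallest p of this complex. It measured 203, 202 and 183 CPM in the WT libraries against 190.2, 173 and 179 CPM in those of 5C, with a log2 fold change of -0.12 (SE 0.07, unadjusted p = 0.117.) With GC offsets, which remove a trend with transcript GC content in each library, its log2 fold change was -0.06. *Uqcrc2*, the other core protein, had a log2 fold change of 0.02, and *Uqcrh*, the hinge protein and the member of this complex with the highest level at 559 TPM, had one of -0.09.

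Complex IV, cytochrome c oxidase, had 9 members lower and 6 higher among 15 tested, with a median log2 fold change of -0.02. Its sums were 1112, 1117 and 1030.0 CPM in the WT libraries against 1091, 1061 and 1118 CPM in those of 5C. *Cox6c*, an accessory subunit, had the smallest p of this complex. It was at 93.4, 102 and 90.1 CPM in the WT libraries against 105, 104 and 106 CPM in those of 5C, with no overlap. Its log2 fold change was 0.14 (SE 0.07, unadjusted p = 0.0627), and with library size alone the unadjusted p was 0.0442. Without WT replicate 2 it was 0.018, at a log2 fold change of 0.19. Of the coding sequence of *Cox6c*, 58.9% is shared with other loci. *Cox7a2*, the ubiquitous form of subunit 7a, measured 124, 125 and 118 CPM in the WT libraries against 116, 117 and 114 CPM in those of 5C. These ranges did not overlap, but the log2 fold change was only -0.08 (unadjusted p = 0.204.)

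Complex V, the ATP synthase, held the most abundant members and had 11 lower and 6 higher among 17 tested, and their median log2 fold change was -0.03. It was -0.08 without WT replicate 3 and 0.02 without WT replicate 2. Its sums were 4072, 4253 and 3846 CPM in the WT libraries against 4107, 3860.0 and 3910.0 CPM in those of 5C. *Atp5b*, the catalytic beta subunit, had the highest level of all members at 1755 TPM. It measured 1456, 1576 and 1344 CPM in the WT libraries against 1454, 1384 and 1407 CPM in those of 5C, with a log2 fold change of -0.04, and the 5C libraries lay inside the range of WT. *Atp5h*, the d subunit of the peripheral stalk, was at 38.7, 43.5 and 36.7 CPM in the WT libraries against 43.3, 42.9 and 48.2 CPM in those of 5C. Its log2 fold change was 0.18 (SE 0.09, unadjusted p = 0.0839.) Without replicate 2 of both genotypes the log2 fold change was 0.28 and the unadjusted p was 0.0431. Of its coding sequence, 72.9% is shared with other loci.

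**Figure D2:**
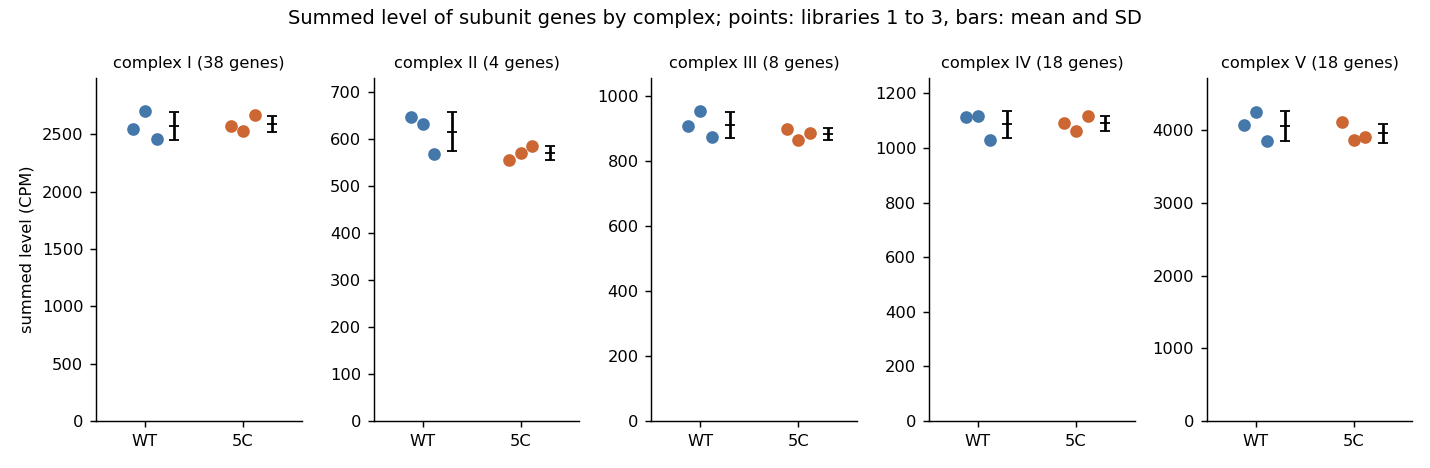
Summed CPM of the members of each complex in the 3 WT (blue) and 3 5C (orange) libraries, with the mean and SD beside the points and every axis starting at 0. The genotypes overlap in all 5 complexes, and the ratio of means (5C over WT) farthest from 1 is that of complex II, at 0.927, from 615.3 CPM in WT and 570.1 CPM in 5C.

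Counted by whether the 3 WT and 3 5C libraries overlapped, 4 members had every 5C library below every WT library (*Ndufa2*, *Ndufs5*, *Cox7a2* and *Atp5g2*), where 5.1% of all genes tested did. Another 4 members had every 5C library above every WT library (*Ndufa1*, *Ndufa4l2*, *Cox6b2* and *Cox6c*), where 6.26% of all genes did. As shares of the 82 members these counts are near the background. Summed over all members, the level was 9289, 9659 and 8780.0 CPM in the WT libraries against 9226, 8882 and 9166 CPM in those of 5C. This averaged 9243 ± 441 CPM over WT libraries against 9091 ± 184 CPM over 5C libraries (SD, n = 3 each), a ratio of 0.984.

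The median level of the members shifted between libraries, and the genotypes overlapped. Whether single members varied together was not tested. As the median deviation of log2 CPM from the mean of the 6 libraries, the members stood at 0.00, 0.08 and -0.07 in WT and at 0.01, -0.02 and 0.03 in 5C. WT replicate 2 was thus the highest and WT replicate 3 the lowest. The shortest 25% of protein-coding genes had the same highest pair and the same lowest library, with deviations from -0.05 to 0.04. The longest 25% had the opposite pattern, with 0.03 in WT replicate 3 and -0.04 in WT replicate 2. Members have short transcripts, with a median of 849.5 bases in the principal coding transcript against 3095 over protein-coding genes. The part of transcript length in the library differences was not tested further. Length offsets, which remove a trend with exon length in each library, gave a median log2 fold change of -0.01 over the members. Without WT replicate 2 the members' median was 0.03, and without WT replicate 3 it was -0.05.

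**Figure D3:**
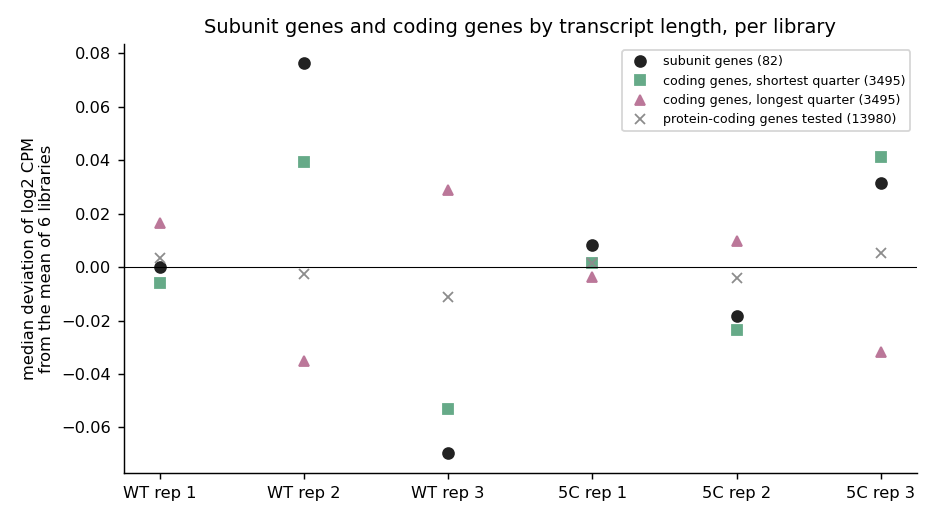
Median deviation of log2 CPM from the mean of the 6 libraries for the 82 members and for protein-coding genes, all or the shortest and longest 25% by transcript length, with 1 point per library. Members and short genes lie above 0 in WT replicate 2 and 5C replicate 3 and below 0 in WT replicate 3, while long genes lie on the other side in these libraries.

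The 3 members on the X chromosome were compared with replicate 2 of both genotypes in view. *Ndufa1*, needed for assembly of the membrane arm of complex I, measured 24.1, 22.0 and 21.5 CPM in the WT libraries against 24.4, 24.2 and 26.6 CPM in those of 5C. Its log2 fold change was 0.15 with all libraries and also 0.15 without replicate 2 of both genotypes. *Ndufb11*, a membrane arm subunit, had a log2 fold change of -0.03 with all libraries and 0.05 without that replicate. *Cox7b* of complex IV had -0.02 and 0.03. None of the 3 reached an unadjusted p under 0.05 in either case.

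Several subunits have more than 1 gene, and in every such set 1 gene had most of the counted transcripts. For subunit 4 of complex IV, *Cox4i1* stood at 807 TPM, the highest of its complex, while *Cox4i2*, the form known from lung and low oxygen, stood at 3.80 TPM. For subunit 6a, the ubiquitous *Cox6a1* was at 448 TPM and the heart and muscle form *Cox6a2* at 5.96 TPM. For subunit 6b, *Cox6b1* was at 484 TPM and the testis form *Cox6b2* at 13.6 TPM. For subunit 7a, the muscle form *Cox7a1* was at 8.10 TPM, *Cox7a2* at 423 TPM and *Cox7a2l* at 100.3 TPM. Of the coding sequence of *Cox7a2l*, 75.1% is shared with other loci, so its counts are uncertain. *Cox8a* was at 282 TPM. *Cox8b*, its muscle form, had 1 to 5 counts per library and was not tested. *Cox7b2* and *Cox8c*, both known from testis, had 0 counts in every library, which allows at most 0.157 to 0.479 CPM. *Ndufa4* was at 499.6 TPM, the highest of the genes counted with complex I, and *Ndufa4l2* was at 2.92 TPM.

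The order within each of these sets was the same in all 6 libraries. *Cox4i1* had a log2 fold change of 0.01, *Cox6a1* of 0.06, *Cox6b1* of -0.01, *Cox7a2* of -0.08, *Cox8a* of -0.03 and *Ndufa4* of -0.06. The less abundant *Cox7a2l* had one of -0.04. None of these genes reached an unadjusted p under 0.05, although the ranges of *Cox7a2* did not overlap between genotypes. The minor form *Cox6b2* measured 3.25, 3.35 and 2.71 CPM in the WT libraries against 3.82, 3.67 and 3.63 CPM in those of 5C. Its ranges did not overlap, and its log2 fold change was 0.24 (unadjusted p = 0.223.)

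The muscle forms were set beside markers of heart and skeletal muscle. *Cox6a2* was at 1.57, 2.58 and 1.595 CPM in the WT libraries against 1.64, 1.45 and 1.57 CPM in those of 5C, with a log2 fold change of -0.30 (unadjusted p = 0.287.) *Cox7a1* had a log2 fold change of -0.12 (unadjusted p = 0.628.) Of 12 heart muscle markers all 12 had a lower estimate in 5C. Their log2 fold changes had a median of -0.23, with 4 at an unadjusted p under 0.05, against 3.47% of all genes tested in that direction. Their sums were 701.9, 945.7 and 748.2 CPM in the WT libraries against 656.3, 618.1 and 697.7 CPM in those of 5C. WT replicate 2 was the highest library for both the marker sum and *Cox6a2*, and without it the log2 fold change of *Cox6a2* was -0.02. The part of heart tissue in the values of the muscle forms was not tested.

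**Figure D4:**
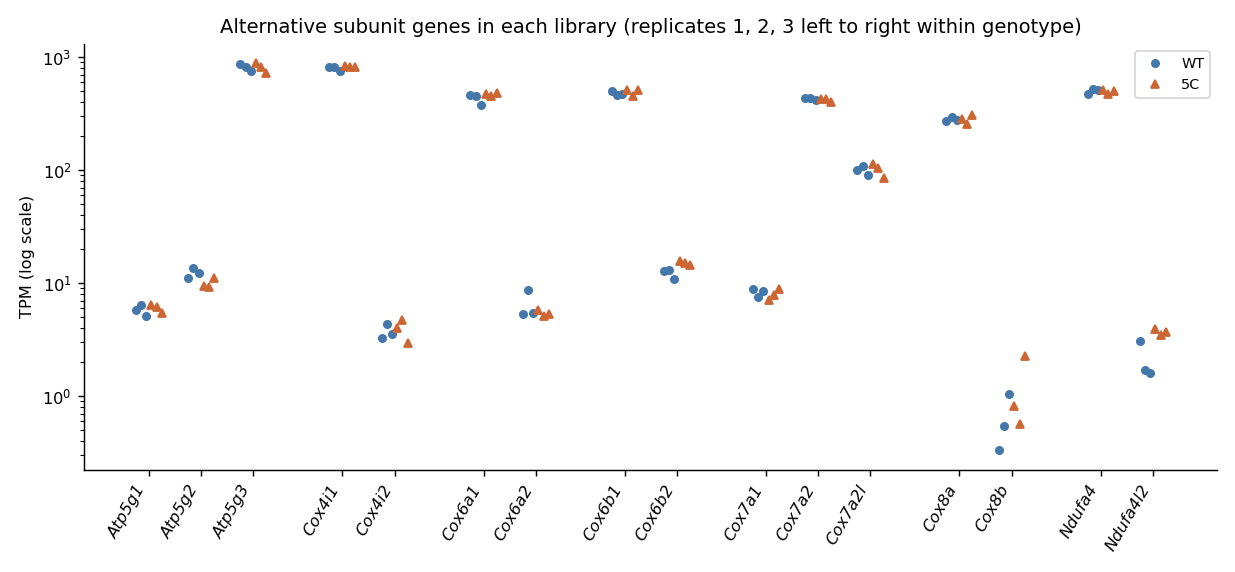
TPM on a log axis of the alternative genes of 7 subunits in each library, with WT as blue circles and 5C as orange triangles. In each set 1 gene lies well above the other members, for example Cox4i1 at 807 TPM and Cox4i2 at 3.80 TPM, in both genotypes alike. Cox8b rests on 1 to 5 counts. Atp5g1, Atp5g2 and Cox7a2l share most of their coding windows with other loci, so their levels are uncertain.

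The c subunit of ATP synthase, which forms the rotating ring, is encoded by 3 genes. *Atp5g3* was at 809 TPM, *Atp5g2* at 11.1 TPM and *Atp5g1* at 5.90 TPM. Their last coding bases, which hold the mature subunit and the stop codon, are printed here from the principal transcripts of the GRCm38 annotation, because they encode the same mature protein in different letters. Capitals mark bases that differ from *Atp5g3*.
Atp5g3: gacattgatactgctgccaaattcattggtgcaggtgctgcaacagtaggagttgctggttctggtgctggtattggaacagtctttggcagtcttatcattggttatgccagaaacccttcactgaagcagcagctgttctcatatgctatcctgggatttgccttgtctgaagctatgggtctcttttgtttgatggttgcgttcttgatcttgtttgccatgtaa
Atp5g1: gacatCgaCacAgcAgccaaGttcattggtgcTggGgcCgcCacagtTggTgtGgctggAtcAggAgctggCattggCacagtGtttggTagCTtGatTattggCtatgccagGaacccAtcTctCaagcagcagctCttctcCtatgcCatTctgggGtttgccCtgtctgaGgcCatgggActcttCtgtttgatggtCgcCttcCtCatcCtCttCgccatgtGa
Atp5g2: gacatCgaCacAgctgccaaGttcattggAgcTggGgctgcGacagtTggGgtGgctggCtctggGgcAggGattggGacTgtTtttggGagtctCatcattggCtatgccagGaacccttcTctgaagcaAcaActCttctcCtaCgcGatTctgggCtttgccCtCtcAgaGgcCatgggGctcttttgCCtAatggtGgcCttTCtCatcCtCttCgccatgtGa

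Over these 228 bases *Atp5g1* and *Atp5g3* differ at 46 positions, of which 41 are at the last position of a codon, and *Atp5g2* and *Atp5g3* differ at 49. The 75 encoded residues are identical in all 3 genes, with 0 differences in each pair. *Atp5g3* has 0% of its 40-base coding windows at another locus. *Atp5g1* and *Atp5g2* have 100% of theirs at another locus, mostly in the processed pseudogenes *Gm10039* on chromosome 11 and *Gm10175* on chromosome 7. These pseudogenes had 7 to 17 and 0 to 6 counts per library. How reads with more than 1 equal alignment were counted is not given in the sources used here. The level of *Atp5g1* also depends on the transcript length taken, since the principal transcript has 4715 bases and the shortest coding transcript 596, which would give 46.7 TPM, above the 18.4 TPM of *Atp5g2* on the same measure. The order of these genes below *Atp5g3*, and how far below it they lie, are therefore uncertain.

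Between genotypes, *Atp5g3* measured 273, 259 and 232 CPM in the WT libraries against 263, 247 and 227 CPM in those of 5C, with a log2 fold change of -0.05. *Atp5g1* had a log2 fold change of -0.01. *Atp5g2* was at 3.57, 4.29 and 3.83 CPM in the WT libraries against 2.85, 2.82 and 3.49 CPM in those of 5C, and the genotypes did not overlap. It had the smallest p among the lower members of complex V, with a log2 fold change of -0.35 (SE 0.19, unadjusted p = 0.103.)

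Shared sequence was not limited to the c subunit. Of the 86 members, 6 had every coding window at another locus, or 6.98%, against 0.716% of 13968 protein-coding genes. They were *Atp5g1*, *Atp5g2*, *Atp5l*, *Cox7c*, *Ndufab1* and *Ndufb4*, the last 4 named here after their values were seen. In all, 15 members, or 17.4%, had at least 50% of their coding windows shared, against 4.6% of protein-coding genes. The partners were mainly processed pseudogenes, such as *Gm10221* for *Atp5l*, *Gm10012* for *Cox7c* and *Ndufb4c* for *Ndufb4*, all of which had 0 counts in every library.

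The 6 members with all coding windows shared had a median of 32.2 TPM and a range of 5.90 to 79.0 TPM. The 40 tested members with none shared had a median of 172 TPM, from 2.92 TPM upward, while the 27 with some but under 50% shared had a higher median, of 258 TPM, and the 9 with more but not all shared had 113 TPM. The median was thus highest in the group with some but under 50% shared and lowest in the group with all shared, in groups of different genes. The low values of *Ndufab1* and *Atp5g1* also depend on a long principal transcript, since by its shortest coding transcript of 452 bases *Ndufab1* would be at 186 TPM in place of 24.2 TPM. The part of shared sequence in these levels was not tested.

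**Figure D5:**
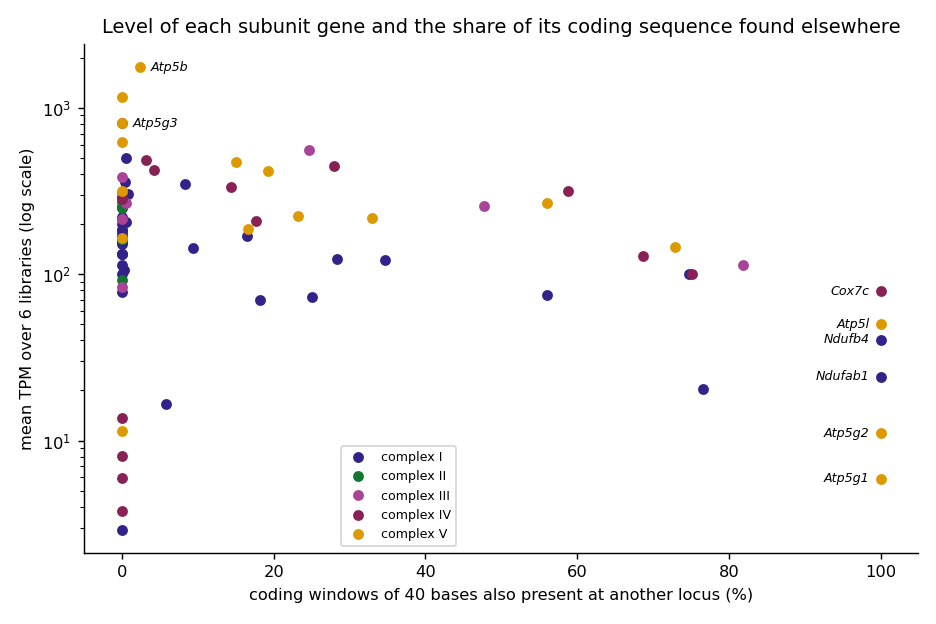
Mean TPM (log axis) of each tested member against the percent of its coding 40-base windows that also occur at another annotated locus, coloured by complex. The 6 members at 100% lie between 5.90 and 79.0 TPM, while members at 0% lie between 2.92 and 1166 TPM.

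Promoters of the members were compared with those of other genes, since the nuclear subunit genes are known as targets of NRF1, GABPA, YY1 and ERRalpha. RefSeq promoter windows (GRCm38.p6, 250 bases before to 50 after the start) were found for 67 of the 82 tested members and for 11099 protein-coding genes. Both strands were searched, and a gene was counted if any of its windows held the letters. The NRF1 core GCGCANGCGC was present in 17 members, or 25.4%, against 10.7% of protein-coding genes and 4.6% of all promoter windows. The ERRalpha motif AAGGTCA was present in 8 members, or 11.9%, against 3.8%, and in 4.7% of all windows. The YY1 core AAGATGG was present in 11 members, or 16.4%, against 7.9%, and in 6.3% of all windows. Of its 11 matches 8 lay after the start, where its letters can coincide with a translation start. The GABPA core CCGGAAG was present in 16 members, or 23.9%, against 18.5%, and in 8.9% of all windows. The median GC content of the windows was 58.3% in members and 60.8% in protein-coding genes.

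Promoters of 3 members named above are shown with their matches in capitals, on the strand of the gene. They are *Sdhd* (chr9:50603800-50604099, minus strand), *Ndufs5* (chr4:123718137-123718436, minus strand) and *Atp5g3* (chr2:73911277-73911576, minus strand). In these windows TGACCTT and CTTCCGG are the reverse complements of the ERRalpha and GABPA letters, and GCGCTTGCGC in *Atp5g3* matches the NRF1 core on the opposite strand.
Sdhd: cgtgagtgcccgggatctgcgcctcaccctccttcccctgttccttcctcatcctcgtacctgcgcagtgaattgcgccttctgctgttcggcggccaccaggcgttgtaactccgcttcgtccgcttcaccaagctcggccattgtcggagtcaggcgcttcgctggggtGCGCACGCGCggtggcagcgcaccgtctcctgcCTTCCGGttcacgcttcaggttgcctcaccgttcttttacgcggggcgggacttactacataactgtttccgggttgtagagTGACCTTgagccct
Ndufs5: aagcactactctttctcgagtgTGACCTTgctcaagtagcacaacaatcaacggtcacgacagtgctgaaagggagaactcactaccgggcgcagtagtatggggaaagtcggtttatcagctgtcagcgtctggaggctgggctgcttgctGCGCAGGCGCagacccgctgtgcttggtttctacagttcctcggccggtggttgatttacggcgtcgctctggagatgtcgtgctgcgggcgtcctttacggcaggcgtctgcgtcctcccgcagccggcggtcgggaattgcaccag
Atp5g3: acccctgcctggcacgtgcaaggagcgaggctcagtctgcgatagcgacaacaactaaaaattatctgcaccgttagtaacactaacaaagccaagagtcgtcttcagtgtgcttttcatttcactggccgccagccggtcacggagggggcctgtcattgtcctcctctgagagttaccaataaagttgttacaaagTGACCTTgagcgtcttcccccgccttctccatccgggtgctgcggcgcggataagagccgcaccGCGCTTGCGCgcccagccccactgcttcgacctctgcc

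The NRF1 core was found in 7 of 33 members of complex I, 2 of 3 of complex II, 1 of 5 of complex III, 1 of 11 of complex IV and 6 of 15 of complex V, and differences between complexes were not tested. These matches are letters in a window and were not tested for binding.

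The mature products of the edited gene were then compared with the members' transcripts. *Mir483* lies within the *Igf2* locus, with miR-483-3p at chr7:142654932-142654952 and miR-483-5p at chr7:142654968-142654989, both on the minus strand. The sequences are those of RefSeq (GRCm38.p6), with the seed, bases 2 to 8, in capitals.
miR-483-3p: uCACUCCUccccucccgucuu
miR-483-5p: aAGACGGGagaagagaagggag

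A match to the seed of miR-483-3p was present in the 3′ UTR of 2 of the 82 tested members, or 2.4%, against 11.5% of 13809 protein-coding genes. A match to that of miR-483-5p was present in 0 members, against 3.3%. The 3′ UTRs of members were short, with a median of 168.5 bases against 1056. Per kilobase, members had 0.115 matches for miR-483-3p against 0.085 over protein-coding genes. The matches lay in *Ndufab1*, the mitochondrial acyl carrier protein, which had 3, and in *Sdhc*, a membrane anchor of complex II, which had 1. Each is shown with the seed match in capitals, and the 3 of *Ndufab1* in their order in the 3′ UTR.
Ndufab1 site 1: tagatatagttAGGAGTGaagtacgtcaa
Ndufab1 site 2: acagttggagcAGGAGTGactgcaaatgc
Ndufab1 site 3: cctctggtttcAGGAGTGcacagcctaga
Sdhc: gttccctagccAGGAGTGctattttgata

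Both genes, named here for these matches, differed little between genotypes. *Ndufab1* was at 35.4, 35.3 and 33.7 CPM in the WT libraries against 37.8, 35.3 and 38.1 CPM in those of 5C, with a log2 fold change of 0.09 (unadjusted p = 0.278.) *Sdhc* had a log2 fold change of -0.08 (unadjusted p = 0.295.) The matches of *Ndufab1* lie in the long 3′ UTR of its principal transcript of 3479 bases, and how much of its RNA ends there was not tested.

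Genes that work beside the subunits were counted in lists. Of 51 tested assembly factors, 26 had a lower and 25 a higher estimate, and 1 was higher at an unadjusted p under 0.05, against a background of 2.55%. It was *Ndufaf1*, which helps to build complex I, at 25.9, 26.9 and 24.6 CPM in the WT libraries against 30.0, 28.5 and 30.3 CPM in those of 5C, with a log2 fold change of 0.20 (unadjusted p = 0.047.) The smallest p-values of the other assembly lists belonged to *Sdhaf1* for complex II (log2 fold change 0.19), *Uqcc3* for complex III (-0.19), *Coa7* for complex IV (-0.17) and *Atpaf2* for complex V (-0.13). Of 5 genes for cytochrome c, cytochrome c1 and the electron transfer flavoprotein with its dehydrogenase, *Etfb*, the beta subunit of that flavoprotein, was lower at an unadjusted p of 0.0233, where 3.47% of all genes were lower under 0.05. It measured 17.1, 14.6 and 12.3 CPM in the WT libraries against 11.6, 11.8 and 10.9 CPM in those of 5C, with a log2 fold change of -0.37.

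Among 18 regulators of mitochondrial biogenesis, 1 was lower and 2 were higher at an unadjusted p under 0.05, against 3.47% and 2.55% of all genes tested. *Pprc1*, a coactivator related to PGC-1alpha, had the smallest p. It was at 47.5, 45.8 and 54.1 CPM in the WT libraries against 40.5, 39.9 and 36.4 CPM in those of 5C, with a log2 fold change of -0.33 (unadjusted p = 0.00433, adjusted p = 0.781) in edgeR's quasi-likelihood test. The 2 higher genes, named after their values were seen, were *Gabpa*, the DNA-binding subunit of GABP, at a log2 fold change of 0.19 (unadjusted p = 0.0393), and *Tfb1m*, a mitochondrial rRNA methyltransferase, at 0.23 (unadjusted p = 0.0475). The median of this list was 0.00.

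Of 16 enzymes of the TCA cycle, 0 passed in either direction, and their median was -0.03. *Dlst*, a subunit of the 2-oxoglutarate dehydrogenase complex, had the smallest p, with a log2 fold change of -0.13. Of 77 mitochondrial ribosomal proteins, 0 were lower and 2 higher at an unadjusted p under 0.05, against the same 3.47% and 2.55%, with *Mrpl32* at 0.32, and the median was 0.01. Of 82 cytosolic ribosomal proteins, 3 were lower and 1 higher on the same background, with *Rpl6* at -0.24, and the median was also 0.01. For subunits encoded in the mitochondrial genome, 7 of 13 genes were tested and 0 passed in either direction. The other 6 (*mt-Co2*, *mt-Co3*, *mt-Atp6*, *mt-Atp8*, *mt-Nd3* and *mt-Nd4l*) were listed at 0 counts in every library although cells use them, so the sums below cover only 7 genes. The smallest p was that of *mt-Nd4*, at a log2 fold change of -0.22. Their sums were 5466, 4786 and 4310.0 CPM in the WT libraries against 4770.0, 5031 and 5515 CPM in those of 5C. These libraries were poly(A)-selected, so that levels of mitochondrial transcripts depend on their poly(A) tails.

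Over 13972 genes, log2 fold change was lower at higher GC content of the transcript, with a Spearman rho of -0.36, as a description across genes that share 6 libraries. Over the 82 members the rho was -0.05. Members at or above their median GC content had a median log2 fold change of -0.02 and those below it -0.01, where protein-coding genes had -0.06 and 0.04.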

How the data were processed

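Whole embryos at E10.5 (3 WT and 3 5C libraries, grouped by title) were profiled by RNA-seq. The authors made stranded poly(A) mRNA libraries, aligned single-end reads with STAR to GRCm38 (Ensembl annotation) and deposited raw counts per gene, as whole numbers with no normalization or filter. Which strand column was used is not given in the sources used here. Whether equal replicate numbers mark litters is not stated. Every pair of libraries differed by more than sampling noise, with a chi-square per gene of at least 5.26.

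Counts were tested in edgeR 4.0.16 (R 4.3.3) after filterByExpr and TMM scaling, with the legacy version of its quasi-likelihood test, two-sided, adjusted by Benjamini-Hochberg over 16784 genes. Calls were made at an adjusted p under 0.05 where the fold change also passed 1.5. The p-values measure only the spread between these libraries. CPM used TMM-scaled totals, and TPM used the length of the principal coding transcript (GENCODE M21, also GRCm38, which gave symbols to 55141 of 55401 identifiers). In simulated counts for this comparison, with 200 genes changed, 64.5% of 2-fold and 90% of 4-fold changes were recovered over 16784 genes. False calls were 7.86% and 7.69%. In the measured counts 0 of 16784 genes were called, and *Mir483* was not among the calls at a log2 fold change of 3.05. The simulated rates need not hold for the measured counts.

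A window of 40 coding bases was shared when it occurred in an annotated transcript of another locus. Transcripts were used in place of the genome, and protein comparisons other than the c subunit were not made. Members and lists were chosen with earlier results of these data known. Named were the genes of alternative subunits, the smallest p in each direction and the highest TPM per complex, every member at an unadjusted p under 0.05, X-linked members, the smallest p per list, and *Mir483*. Other genes are marked as such where they appear.

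Results were recomputed with RLE scaling or unscaled library totals, with the filter dropped or raised to 10 counts in each library, with DESeq2 1.42.0 and limma-voom (limma 3.58.1), with the newer version of the quasi-likelihood test, with robust moderation, and with the replicate block, GC and length offsets, each library left out, and removal of mitochondrial and globin genes. Leaving out pairs of libraries, and other transcript lengths, were chosen after seeing the data.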

Additional observations from a re-analysis of the deposited data

How the results depend on the processing

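Under 21 alternatives, 0 members passed the adjusted threshold, although without a count filter 319 of all genes did and with DESeq2 10 did. The median log2 fold change of all members stayed between -0.0498 and 0.0323, and that of complexes I, IV and V also changed sign with 1 library left out (-0.0285 to 0.0663, -0.0502 to 0.026 and -0.0845 to 0.0162 over all fits without some library). With all libraries kept, the median also changed sign, from -0.0166 to 0.005 over all members and from -0.0289 to 0.0178 in complex IV. The number of members at an unadjusted p under 0.05, which was 2, became 1 with library size alone (*Cox6c*), 1 with length offsets (*Sdhd*), 1 with GC offsets and the replicate block, and 0 with DESeq2. With GC offsets it was 3, all higher in 5C (*Atp5mpl*, *Ndufa10* and *Ndufa4l2*) and 0 lower, and without a count filter it was 2 other genes (*Ndufa12* and *Sdha*). Leaving out 1 library gave 0 to 4 such members, with 0 without 5C replicate 2 or 5C replicate 3, 1 without WT replicate 1, and 4 without WT replicate 2 or 5C replicate 1. Leaving out replicate 2 of both genotypes gave 1. The share of all genes at that threshold was not computed under any of the 21 alternatives, so these counts stand without a background. The split of lower against higher estimates, 47 against 35, became 30 against 52 without WT replicate 2 and 61 against 21 without WT replicate 3. With library size alone, 12 members did not overlap between genotypes, against 8, and the median of all genes moved by 0.0164. The share of all genes that did not overlap under that scaling was not computed, so the 12 stand without a background.

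The replicate block gave 0 members at an unadjusted p under 0.05. Deviations of same-numbered libraries correlated at -0.174, 0.202 and -0.166, and 2 of 6 libraries correlated best with their own number, so the numbers were not taken to pair the libraries.

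Of 585 values of named genes under alternatives, 533 kept their sign and side of the threshold and 52 changed sign, 16 of them with all libraries in. None of the reversed genes was called, and the cause was not tested. With library size alone, *Atp5g1* had a log2 fold change of 0.0083 and *Cox6b1* of 0.0063. Without a count filter they had 0.0037 and 0.0038. Under the replicate block, *Atp5g1* had 0.0045. With GC offsets, *Cox6b1* had 0.0178, *Cox8a* 0.0304, *Ndufb11* 0.0085 and *Uqcrc2* -0.0328. With GC offsets and the replicate block, the same genes had 0.0154, 0.0208, 0.0117 and -0.032. With length offsets, *Cox4i1* had -0.0083 and *Sdhb* -0.0067, and with limma-voom *Sdhb* had -0.0012.

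Without replicate 2 of both genotypes, *Atp5b* had 0.0307, *Atp5g1* 0.0639, *Cox6a2* 0.0176, *Cox6b1* 0.026, *Cox7a2l* 0.0063, *Cox7b* 0.034, *Cox8a* 0.0761, *Ndufa4* 0.0184 and *Ndufb11* 0.051. The next ranges are from fits with 1 library left out, or WT replicate 1 and 5C replicate 3 together. They cover the genes that changed sign under any alternative, and *Cox6a2* and *Ndufa4* kept their sign in these fits. The ranges were *Atp5b* -0.1061 to 0.0162, *Atp5g1* -0.0913 to 0.0703, *Atp5g3* -0.1213 to 0.0567, *Cox4i1* -0.0446 to 0.032, *Cox4i2* -0.1334 to 0.1693, *Cox6a1* -0.0405 to 0.1188, *Cox6a2* -0.4956 to -0.0218 and *Cox6b1* -0.0536 to 0.044. The others ran over *Cox7a2l* -0.1208 to 0.0671, *Cox7b* -0.1169 to 0.0099, *Cox8a* -0.1286 to 0.0323, *Ndufa4* -0.1241 to -0.0211, *Ndufb11* -0.0736 to 0.0354, *Sdhb* -0.0519 to 0.0518 and *Uqcrc2* -0.0158 to 0.0407.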
